A study of Homo sapiens with 4 samples.

Results

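NFIC-only sites near an SMRC1 peak are places where the NFIC antibody gave a ChIP-seq peak, the SMRC1 and SATB1 antibodies gave none, and an SMRC1 peak lay close by. They were chosen from the 3 deposited peak lists by position alone. An NFIC peak was taken when it shared no base with any SMRC1 or SATB1 peak and when at most 10000 bp separated it from the nearest SMRC1 peak edge on its chromosome (build hg19). The rule found 2437 of 13643 NFIC peaks, or 17.9% (exact binomial 95% interval 17.2 to 18.5). They made up 37.4% (36.2 to 38.6) of the 6520 NFIC peaks that overlapped neither other list. The remaining 4083 of these peaks, more than 10000 bp from any SMRC1 peak, are called far sites below, and the 2437 are called near sites. A further 7074 NFIC peaks overlapped an SMRC1 peak and 49 overlapped a SATB1 peak only.

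All libraries came from HepG2, a long-established line grown from a human liver tumour, and the cells were fixed with 1% formaldehyde for 10 min. The groups differed only in the antibody, raised against SMRC1, SATB1 or NFIC, and the study also made an input library, which was not analysed here. Each antibody had 1 library in 1 cell line, so there is no replicate spread and no test of a difference is given. The intervals on shares and medians cover counting error over peaks only.

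NFIC belongs to the nuclear factor I transcription factors, which bind DNA as dimers at a palindromic site and act on many liver genes. SMRC1 stands for SMARCC1, also called BAF155, a scaffold protein of SWI/SNF complexes, which use ATP to move or remove nucleosomes. SWI/SNF is commonly found at enhancers and promoters, and regulatory elements of a gene often lie several to a neighbourhood. SATB1 binds AT-rich DNA and organises chromatin.

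Near sites crowded towards the SMRC1 peaks within the allowed 10000 bp. The gap, meaning the bases between the 2 peak edges, had a median of 3349 bp (95% interval 3163 to 3598) and quartiles of 1272 and 6266 bp. The number of NFIC-only peaks was 502 at gaps under 1 kb, 344 between 1 and 2 kb, 261 between 2 and 3 kb and 160 between 9 and 10 kb. Outside the limit the fall went on, with 121 peaks between 10 and 11 kb and 80 between 19 and 20 kb. The limit of 10000 bp therefore cuts through a continuing decline and does not separate 2 groups of sites. Gaps are what the rule used, so these numbers are a description.

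The decline also held per length of DNA available. For this count each NFIC-only peak was placed by its summit, its highest point, and all bases outside SMRC1 peaks were sorted by their distance to the nearest SMRC1 edge. Between 500 and 1000 bp there were 251 NFIC-only summits in 26.4 Mb, or 9.51 per Mb. The density was 7.29 per Mb between 1000 and 2000 bp, 5.84 between 2000 and 5000 bp and 5.05 between 5000 and 10000 bp. It was 4.09 per Mb between 10000 and 20000 bp, 3.23 between 20000 and 50000 bp, and 0.808 in the 1947 Mb farther away, which include unsequenced stretches. Within 500 bp it was 5.21 per Mb. There the rule removes most peaks, because a peak with its summit so close usually reaches into the SMRC1 peak. With those peaks kept, the density within 500 bp was 20.1 NFIC summits per Mb.

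**Figure D1:**
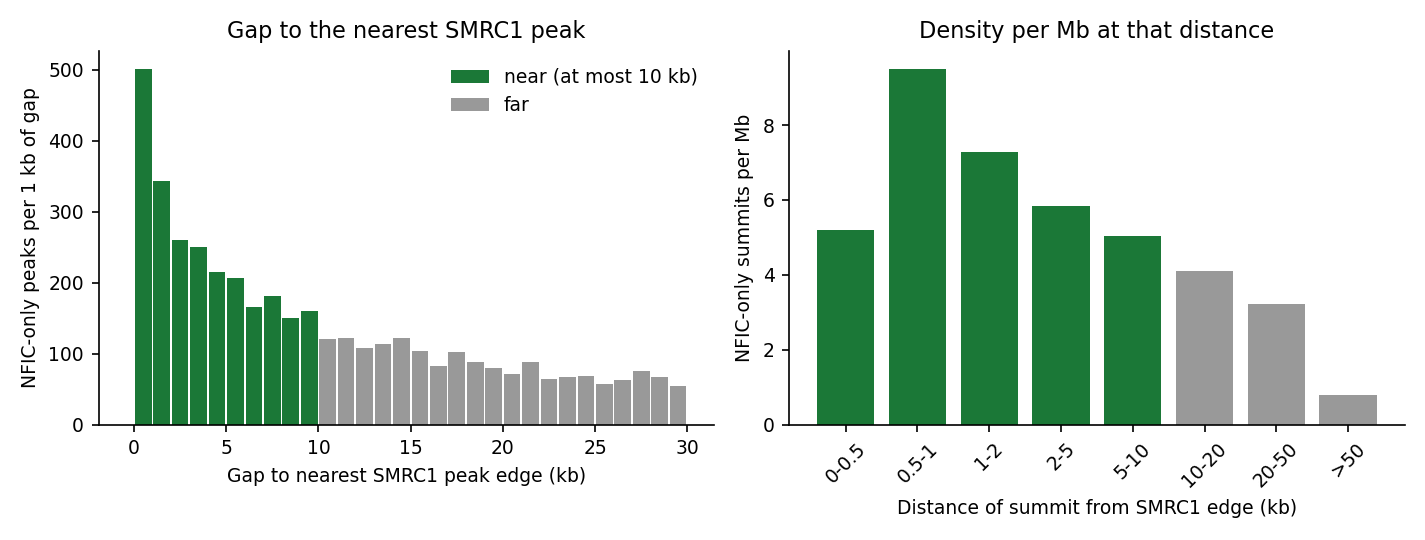
Left, number of NFIC-only peaks in each 1 kb of gap to the nearest SMRC1 peak edge, with near sites in green and far sites in grey. Right, NFIC-only summits per Mb of DNA at each distance from an SMRC1 edge. Counts fall from 502 in the first kb to 160 in the tenth and go on falling beyond 10 kb, and the density falls from 9.51 per Mb at 500 to 1000 bp to 0.808 beyond 50 kb.

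SMRC1 peaks lay on either side of the near sites alike. The nearest one was at higher coordinates for 1183 near sites, or 48.5% (46.5 to 50.6). The NFIC summit lay in the part of its own peak that faced the SMRC1 peak in 1224 near sites, or 50.2% (48.2 to 52.2), an interval that includes an even split. Summits of a near site and of its SMRC1 neighbour were a median of 4014 bp apart (quartiles 1923 and 6853 bp).

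In statistical strength the near sites were average members of the NFIC list. A −log10 q of at least 10, where q is the peak caller's p-value adjusted over the genome, was reached by 1134 of 2437 near sites (46.5%, 44.5 to 48.5), against 46.3% of all NFIC peaks. The share was 41.6% (40.1 to 43.1) among far sites and 48.9% (47.7 to 50.03) among NFIC peaks at SMRC1 sites. When all NFIC peaks were ranked by −log10 q and divided into 10 equal parts, near sites made up 17.0% to 20.5% of each of the lower 9 and 13.5% (11.7 to 15.4) of the strongest. Far sites made up 30.5% of the weakest part, 34.4% of the fourth and 19.1% of the strongest. Widths of near sites had a median of 476 bp (quartiles 370 and 599 bp), compared with 459 bp for far sites and 517 bp for NFIC peaks at SMRC1 sites. Width bears on whether a peak touches another, so it is part of what chose the sites.

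Near sites held an intermediate place in fold, which the authors give as reads at the summit relative to local background. The median fold was 5.24 (5.11 to 5.36) in near sites, 5.79 (5.70 to 5.85) in far sites and 4.19 (4.14 to 4.24) in NFIC peaks at SMRC1 sites. A fold of at least 10 was reached by 169 near sites (6.93%, 5.96 to 8.02), against 7.3% of all NFIC peaks, 9.23% of far sites and 6.28% of the peaks at SMRC1 sites. The reads and the background behind each fold were recovered from the deposited fold and p-value. They were found for all 2437 near sites. The median summit of a near site held 28 NFIC reads (quartiles 21 and 41), compared with 22 in far sites and 40 at SMRC1 sites. The median background, in control fragments expected at the summit, was 4.62 (4.31 to 4.93) in near sites, 3 in far sites and 9 at SMRC1 sites. Near sites thus had 1.27 times the reads of far sites over 1.54 times the background, and 0.700 times the reads of the peaks at SMRC1 sites over 0.513 times the background.

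The 3 quantities changed with the gap to the SMRC1 peak. In near sites less than 500 bp away, the median fold was 4.40 (4.21 to 4.72), with 34 reads (32 to 36) over a background of 6.78 (6.16 to 7.08). Between 1000 and 2000 bp the fold was 5.16 (4.77 to 5.46), with 30 reads over a background of 5. Between 5000 and 10000 bp it was 5.57 (5.43 to 5.71), with 25 reads (24 to 26) over a background of 4 (3.70 to 4). Fold thus went up with the gap while reads and background both went down, each from the side of the values at SMRC1 sites towards those of far sites. Across the 2437 near sites, Spearman's rho with the gap was 0.13 for fold, -0.19 for reads, -0.29 for background and -0.039 for width. All these values come from 1 NFIC library and 1 control, and fold is reads over background by construction.

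**Figure D2:**
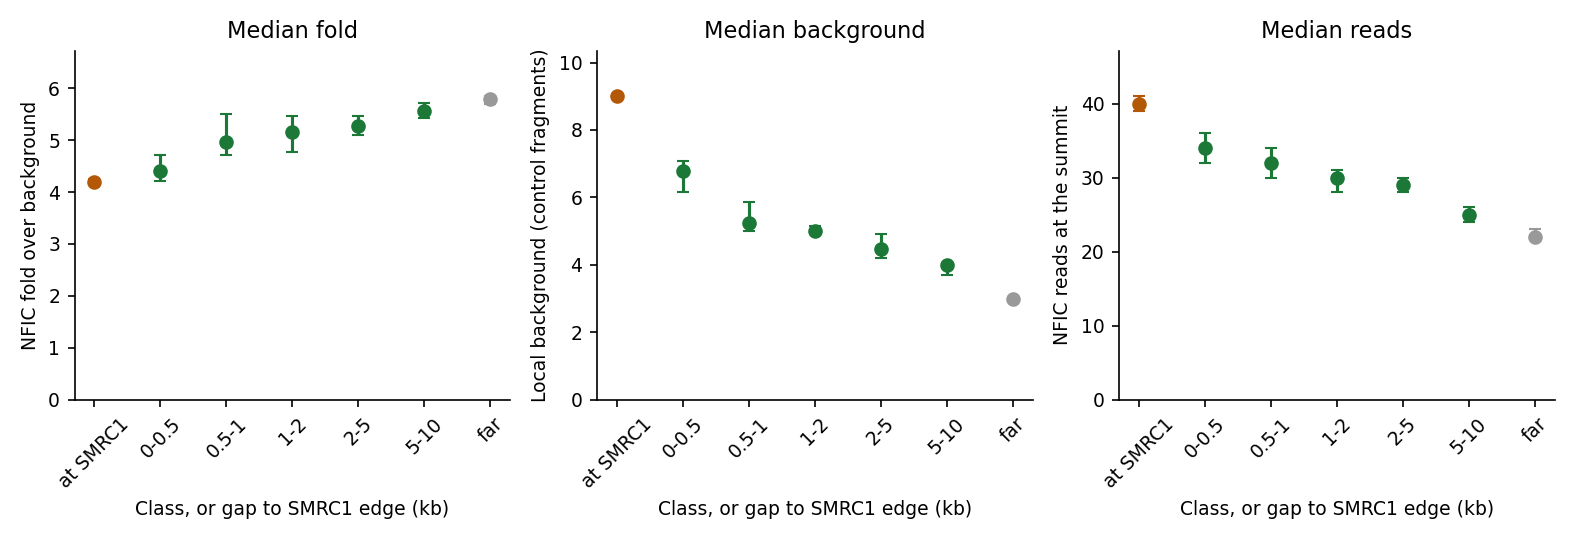
Median NFIC fold, local background and reads at the summit for NFIC peaks at SMRC1 sites (orange), near sites by gap to the SMRC1 edge (green) and far sites (grey), with exact 95% intervals of the median over peaks. From the smallest to the largest gaps, fold goes from 4.40 to 5.57, background from 6.78 to 4 and reads from 34 to 25.

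At a like background of 2 to 4 or 4 to 8 fragments, the gradient with the gap was not visible. The 215 near sites under 2 fragments, 393 at 8 to 16 and 33 from 16 up were not split by gap. Among near sites with a background of 4 to 8 control fragments, the median fold was 4.95 (4.55 to 5.17) in 244 sites less than 1000 bp away. It was 4.97 (4.80 to 5.17) in 512 sites at 1000 to 5000 bp and 4.97 (4.77 to 5.36) in 307 sites at 5000 to 10000 bp. Median reads in the same 3 sets were 32, 31 and 30. With a background of 2 to 4 fragments the medians of fold were 5.67, 5.84 and 5.66, and the median was 21 reads in each set.

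Near and far sites of like background also had close values at backgrounds under 16 fragments. With a background of 4 to 8 fragments, 1063 near sites had a median fold of 4.97 (4.80 to 5.11) and 1022 far sites also had 4.97 (4.80 to 5.10). With 2 to 4 fragments the medians were 5.68 (5.47 to 5.87) and 5.71 (5.66 to 5.92), and with 8 to 16 fragments 4.07 (3.84 to 4.24) and 4.17 (3.94 to 4.52). With under 2 fragments they were 6.49 (6.26 to 6.68) and 6.62 (6.29 to 6.65). From 16 fragments up, where there were only 33 near and 44 far sites, near sites were lower, with a fold of 2.80 (2.48 to 4.02) against 3.30 (3.04 to 4.19) and 57 reads against 75, with overlapping intervals. NFIC peaks at SMRC1 sites had medians of 5.67 (5.45 to 5.92), 4.57 (4.52 to 4.68) and 3.77 (3.71 to 3.86) at 2 to 4, 4 to 8 and 8 to 16 fragments. At 4 to 8 fragments the interval of the peaks at SMRC1 sites lay below that of near sites, and at 8 to 16 fragments the intervals overlapped slightly. Reads were alike, with medians of 31 in near sites and 31 at SMRC1 sites at 4 to 8 fragments, and 46 and 45 at 8 to 16. Each range of background is wide, and where the peaks of a class stood within it was not compared. The lower fold therefore does not show fewer reads at SMRC1 sites. At any background a peak had to pass the caller's threshold, which sets the fewest reads it can hold in every class. The classes also differed in how many of their peaks stood on each background. A background under 2 fragments was found in 8.82% of near sites, 28.0% of far sites and 1.70% of NFIC peaks at SMRC1 sites.

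Ranked by background, near sites were most frequent in the middle of the NFIC list. Their share was 14.4% (12.6 to 16.4) in the lowest of 10 equal parts, 30.2% (27.8 to 32.7) in the fourth and 4.25% (3.24 to 5.46) in the highest. Far sites went from 77.6% to 5.57% over the same ranking, and NFIC peaks at SMRC1 sites from 7.77% to 89.7%.

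**Figure D3:**
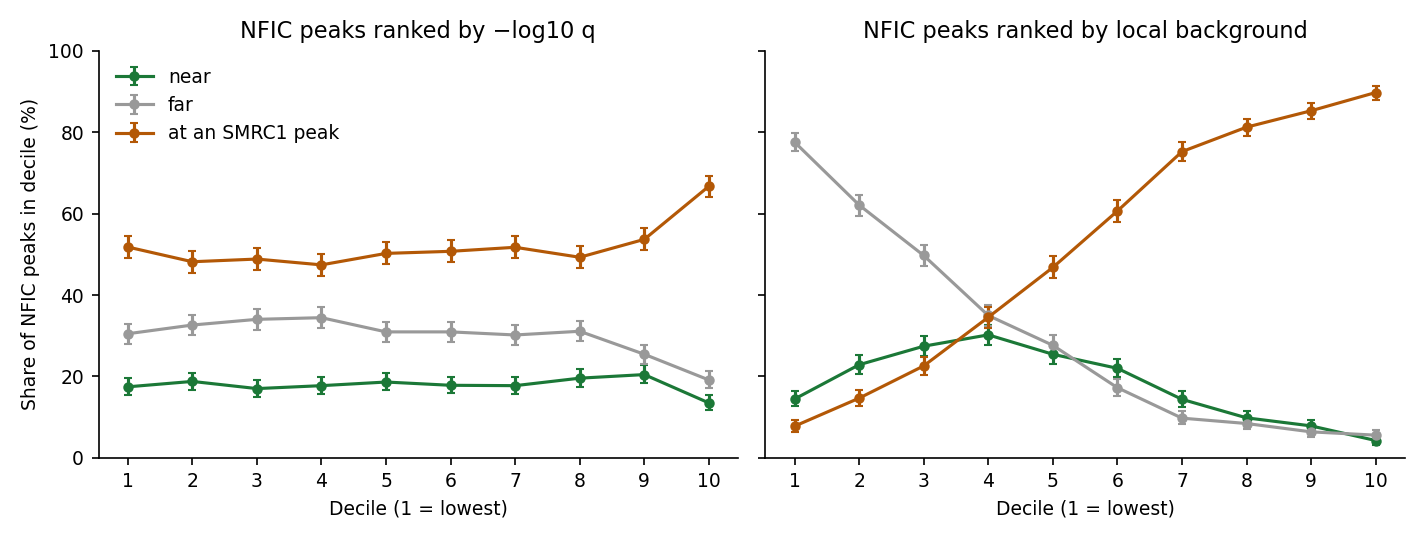
Share of NFIC peaks that are near sites, far sites or peaks at an SMRC1 peak, in 10 equal parts of the list ranked by −log10 q (left) or by local background (right), with exact binomial 95% intervals. Near sites stay between 17.0% and 20.5% in the lower 9 parts by −log10 q, and by background they peak at 30.2% in the fourth part.

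The SMRC1 peaks beside near sites resembled the SMRC1 list as a whole. There were 2295 of them, 7.79% of that list, of which 2154 served as nearest neighbour to 1 near site, 140 to 2 and 1 to 3. Their median SMRC1 fold was 4.04 (3.98 to 4.11) and their median width 616 bp, compared with 4.08 and 607 bp for all 29441 SMRC1 peaks. An SMRC1 −log10 q of at least 10 was reached by 998 of the 2295 (43.5%, 41.5 to 45.5), against 43.7% of the list. An NFIC peak lay on 573 of them (24.97%, 23.2 to 26.8), against 23.7% of the list, and a SATB1 peak on 225 (9.80%, 8.62 to 11.1), against 8.61%. These shares were close to those of the whole list. The strength of a near site was hardly related to that of its neighbour, with a Spearman's rho across the 2437 near sites of 0.028 for −log10 q and 0.023 for fold. Both lists may share a control library, which the sources used here do not state.

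In 613 near sites the SMRC1 neighbour carried an NFIC peak of its own, which allows 2 NFIC sites of one neighbourhood to be set side by side in the same library. Where several NFIC peaks lay on the neighbour, the one with the highest −log10 q was taken. The near site had the higher fold in 385 of 613 pairs (62.8%, 58.8 to 66.6), with a median ratio of 1.20 (1.13 to 1.26). It had more reads in 179 of the 612 pairs with recovered reads (29.2%, 25.7 to 33.0), with a median ratio of 0.734 (0.689 to 0.783). Its background was higher in 104 of 612 pairs (17.0%, 14.1 to 20.2), with a median ratio of 0.541 (0.518 to 0.577). In −log10 q the near site was higher in 288 of 613 pairs (47.0%, 43.0 to 51.0). Some of the pairs share a neighbour and are not independent.

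Another NFIC peak lay within 10000 bp of 1033 near sites (42.4%, 40.4 to 44.4), against 27.2% of all NFIC peaks, 32.4% (31.4 to 33.6) of those at SMRC1 sites and 9.14% (8.27 to 10.1) of far sites. In 755 of these 1033 the nearest other NFIC peak was at an SMRC1 site, and in 234 it was another near site. A SATB1 peak lay within 10000 bp of 341 near sites (14.0%, 12.6 to 15.4), against 12.8% of all NFIC peaks. The share was 18.4% (17.5 to 19.4) for NFIC peaks at SMRC1 sites and 1.13% (0.826 to 1.5) for far sites. The rule sets both counts in part, since it asks for an SMRC1 peak nearby and many NFIC and SATB1 peaks lie on SMRC1 peaks. It also bars near and far sites from overlapping a SATB1 peak. The SATB1 shares of all NFIC peaks and of those at SMRC1 sites include overlapping peaks, so they are not like measures.

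The SMRC1 peak that was nearest to the most near sites lay on chromosome 2 at 97351652 to 97351985 (band q11.2), with an SMRC1 fold of 4.82. It was overlapped by a wider and stronger NFIC peak at 97350988 to 97352278, with a fold of 17.05. The first of its 3 near sites was at 97352889 to 97353539, with a gap of 903 bp, a fold of 8.64 and 38 reads. The others followed at 97360398 to 97361051, with a gap of 8412 bp and a fold of 6.75, and at 97361290 to 97361739, with a gap of 9304 bp and a fold of 2.98. All 3 lay on the same side of the SMRC1 peak, and the last pair were 238 bp apart. Each of them was weaker than the NFIC peak on the SMRC1 site. This locus is not typical of the set in fold, since the near site had the higher fold in 385 of the 613 pairs above.

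**Figure D4:**
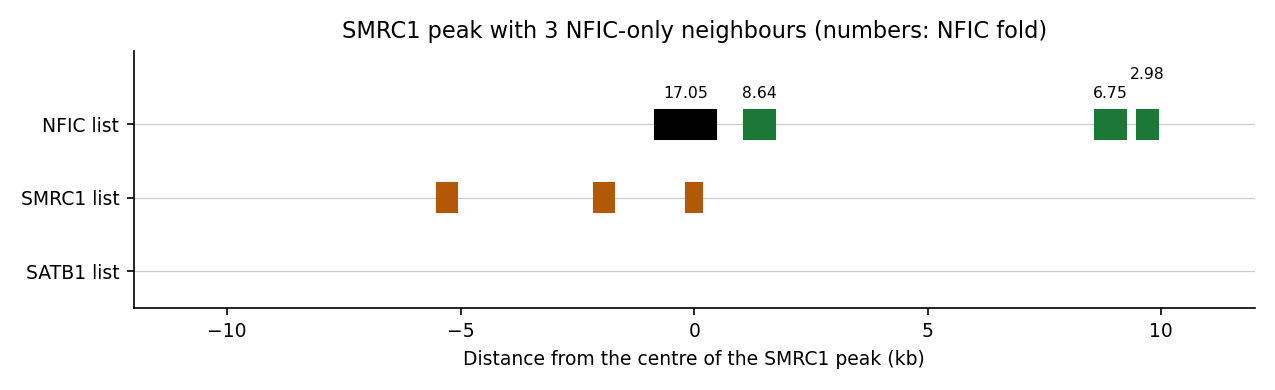
Peaks of the 3 lists around the SMRC1 peak on chromosome 2 that is nearest to 3 near sites, in kb from its centre. Near sites are green, the NFIC peak at the SMRC1 site is black, SMRC1 peaks are orange and numbers give the NFIC fold, which falls from 17.05 at the SMRC1 peak to 2.98 at the farthest near site. In 385 of 613 pairs over the whole set the near site had the higher fold.

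The 10 near sites with the highest −log10 q were strong NFIC peaks beside SMRC1 peaks of ordinary strength. They held 135 to 237 reads at the summit with folds of 12.3 to 28.8, and their gaps ranged from 189 to 8613 bp. Their SMRC1 neighbours had folds of 2.997 to 6.56 and a −log10 q of 7.02 to 19.7. An NFIC peak lay on 2 of the 10 neighbours and a SATB1 peak on 0. Of the 100 NFIC peaks with the highest −log10 q, 9 were near sites, a smaller share than the 17.9% of the whole list.

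The leading near site lay on chromosome 11 at 72125013 to 72125927 (q13.4), with 192 reads over a background of 6.78 and a fold of 24.6. Its SMRC1 neighbour, at 72128576 to 72129491, had a fold of 3.51 and lay 2648 bp away. It ranked 28 among all NFIC peaks. Just after it, at rank 29, came a site on chromosome 13 at 50159400 to 50160274 (q14.2), with 208 reads, a fold of 20.9 and a gap of 1192 bp. The site on chromosome 20 at 49252234 to 49253320 (q13.13) had 195 reads, a fold of 17.9 and a gap of 8613 bp, and its SMRC1 neighbour carried an NFIC peak.

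The most reads, 237, were at the site on chromosome 6 at 33385645 to 33386593 (p21.32), where a background of 18.2 gave a fold of 12.3, the lowest of the 10. The highest fold of the 10, 28.8, was at the site on chromosome 21 at 35915893 to 35916828 (q22.12), with 135 reads over a background of 3.70 and a gap of 586 bp. These 2 sites show how far fold and reads can part within the set.

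On chromosome 14 at 24894616 to 24895772 (q12), a site of fold 13.8 lay only 189 bp from its SMRC1 peak and 3368 bp from a SATB1 peak. It was the widest of the 10, at 1157 bp. A site on chromosome 12 at 56543964 to 56544875 (q13.2), of fold 23.3, was 910 bp from its SMRC1 peak and 6849 bp from a SATB1 peak. The remaining 3 were on chromosome 7 at 75932123 to 75933120 (q11.23, fold 19.9), chromosome 2 at 167240871 to 167241966 (q24.3, fold 15.1) and chromosome 22 at 41762892 to 41763649 (q13.2, fold 14.2). Their gaps were 3035, 7910 and 6324 bp.

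At the smallest gaps the peaks touched or nearly touched. The gap was under 100 bp in 61 near sites and 0 bp in 2 of them. One of the 2 lay on chromosome 19 at 46272607 to 46272944 (q13.32), where 54 reads over a background of 21.0 gave a fold of 2.48. The SMRC1 peak beside it, at 46272026 to 46272606, had a fold of 2.96, and the summits were 416 bp apart. The other lay on chromosome 11 at 86715476 to 86715894 (q14.2), with 22 reads and a fold of 2.86, beside an SMRC1 peak of fold 5.63 that carried another NFIC peak. Gaps of 1 bp were found on chromosome 1 at 8878214 to 8878868 (p36.23, fold 5.62) and on chromosome 7 at 158621520 to 158621883 (q36.3, fold 3.18). The next, of 3 bp, was on chromosome 10 at 71951444 to 71951915 (q22.1, fold 5.21). For such sites, a small change in where an edge was called would have made them shared sites.

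At the limit, the 3 near sites with the largest gaps lay 9992, 9973 and 9954 bp from an SMRC1 peak, with folds of 10.6, 6.52 and 5.004. The 3 far sites with the smallest gaps lay 10002, 10007 and 10019 bp away, with folds of 3.70, 10.7 and 5.30. The near site at 9992 bp, on chromosome 16 at 22018855 to 22019501 (p12.2), held 194 reads. Its SMRC1 neighbour was weak, with a fold of 2.27 and a −log10 q of 1.42.

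Near sites were found on 23 chromosomes. As a share of the NFIC-only peaks of a chromosome they ranged from 24.0% (13.1 to 38.2, 12 of 50) on chromosome 21 to 49.8% (43.3 to 56.3, 121 of 243) on chromosome 19. Chromosomes 17 (45.7%, 40.5 to 51.1), 22 (45.5%, 37.2 to 54.0) and 16 (44.3%, 38.6 to 50.2) followed chromosome 19, and chromosomes 5 (30.5%, 25.7 to 35.7) and 4 (30.04%, 24.2 to 36.4) were low. Chromosomes 17 and 19 were also the densest in SMRC1 peaks, with 20.3 and 19.1 per Mb, but the order of the shares did not follow that density throughout. Chromosome X, with the lowest density of 4.37 per Mb, had 34.0% near sites, chromosome 18, with 7.79 per Mb, had 41.5%, and chromosome 6, with 11.2 per Mb, had 32.7%. The background of near sites was highest on chromosome 20, at a median of 8 control fragments, with 41 reads and a fold of 5.04. On the other chromosomes the median background was 3 to 6. Copy number was not measured here.

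**Figure D5:**
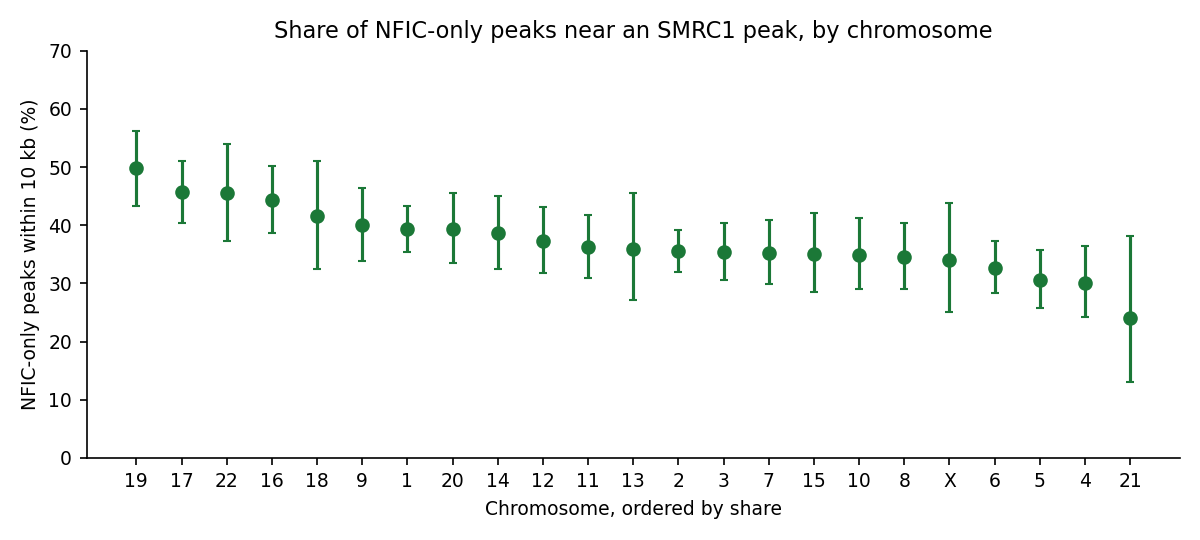
Share of the NFIC-only peaks on each chromosome that lie within 10 kb of an SMRC1 peak, with exact binomial 95% intervals. The share goes from 49.8% on chromosome 19 to 24.0% on chromosome 21, and most intervals overlap.

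By chromosome band, 1473 near sites (60.4%, 58.5 to 62.4) lay in unstained bands, which are rich in genes, against 58.5% of all NFIC peaks and 56.4% (54.9 to 57.9) of far sites. The darkest bands, which are poor in genes, held 133 near sites (5.46%, 4.59 to 6.43), against 7.18% of all NFIC peaks. They held 7.07% (6.48 to 7.69) of NFIC peaks at SMRC1 sites and 8.47% (7.64 to 9.37) of far sites. Per Mb there were 1.14 near sites in unstained and 0.267 in the darkest bands, a ratio of 4.28. The ratio was 2.58 for far sites and 3.36 for SMRC1 peaks. The lightest stained bands were denser than the unstained ones, with 1.27 near sites per Mb, and this was also so for far sites (1.90 against 1.79 per Mb) and SMRC1 peaks (15.3 against 13.4 per Mb).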

How the data were processed

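The 3 peak lists, 1 per antibody, were used as deposited. Reads were handled with Bowtie 1.1.2, SAMtools, MACS2 2.1.1 and deepTools on hg19, per the submitters' processing notes. Their settings, and the control library, are not stated in the labels or files. Each list has 10 columns in narrowPeak order. The deposited score was the whole part of 10 times the −log10 q and was not used further (2 SMRC1 peaks differ). The deposited fold is the authors' ratio at the summit, and the authors' peak caller gave the deposited −log10 p and −log10 q of each peak. The lowest −log10 q in the NFIC list was 1.02.

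Overlap meant 1 shared bp. Reads and background at NFIC summits were recovered by solving fold = (reads + 1) / (background + 1) together with the Poisson p-value, with reads whole within 0.05. This gave 1 solution in 13640 of 13643 peaks and an NFIC depth of 1.01 times the control. The absolute depth is unknown. The background is the Poisson mean behind the p-value, so it need not be a count of fragments at the site. Its lowest value, 1.38, was the same in near sites, far sites and NFIC peaks at SMRC1 sites. Shares have Clopper-Pearson and medians order-statistic 95% intervals, for counting error only. The functions were tested on simulated peaks. For the recovery these were made with the same formulas and did not reach the highest backgrounds or reads of the list.

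The sites, named peaks and tests were chosen with earlier results of these data known. Peaks are named by rule: the 10 highest −log10 q, the 5 smallest gaps, 3 on either side of the limit, and the near sites of the SMRC1 peak with most of them (140 others tie at 2 and are not named). A planned search for the nuclear factor I palindrome and the naming of nearby genes need an hg19 sequence and annotation, which were not used here. Alternatives were 5000 and 20000 bp limits, stricter −log10 q, an overlap of 50%, distance between summits, and reads whole within 0.02. Positions are 1-based. Bands and chromosome lengths came from circlize 0.4.16. Calculations were made in Python 3.11.15 with scipy 1.17.1, pandas 2.3.3, numpy 2.4.6 and, for plots, matplotlib 3.10.9.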

Additional observations from a re-analysis of the deposited data

How the results depend on the processing

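Of 49 values recomputed under other settings, 25 stayed within the 95% interval of the reported value or, for the number of near sites, within 1.5 times, and 24 moved. With a limit of 5000 bp there were 1573 near sites, 24.1% of NFIC-only peaks, with a median gap of 1842 bp, a median fold of 5.04, a background of 5 and 48.6% at a −log10 q of at least 10. With 20000 bp the share was 53.4%, the gap 5814 bp, the fold 5.36 and the background 4.004. With SMRC1 peaks of −log10 q of at least 10 only, the share was 21.9%, the gap 3868 bp, the fold 4.96, the background 6, the width 497.5 bp, the share of strong peaks 49.8% and the share whose neighbour had an NFIC peak 38.6%. That setting left 1848 near sites, of which 1299 were among the 2437. The rest overlap an SMRC1 peak that this setting drops, so in the full lists they are NFIC peaks at SMRC1 sites. Such peaks also join the NFIC-only total behind the 21.9%. The values at this setting therefore shift in part by construction and do not describe the same kind of site. The share of the SMRC1 peaks kept at this setting that carry an NFIC peak was not computed. The 38.6% therefore has no matching baseline, and the 23.7% of all SMRC1 peaks is not one. With an overlap of at least 50% of the NFIC peak, the share was 41.2%, the gap 2534 bp, the background 5, the width 497 bp, the share of strong peaks 49.0% and the share whose neighbour had an NFIC peak 36.1%. That overlap setting takes in NFIC peaks that overlap an SMRC1 peak by less than 50%, with a gap counted as 0 bp. Their neighbour has an NFIC peak by definition, so the gap and the last share shift by construction. With distances between summits the median was 3834 bp. A −log10 q of at least 2 in all lists moved none of the 8 values. The palindrome search was not run. With 1 library per antibody, no replicate could be left out, and depth limits which weak SMRC1 or SATB1 sites were called.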

Other observations

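Some near sites lay between SMRC1 peaks. In 443 of 2437 (18.2%, 16.7 to 19.8) an SMRC1 peak lay within 10000 bp on both sides. Their median fold was 4.87 (4.56 to 5.11), with 31 reads over a background of 5.54 (5 to 6) and a gap of 1964 bp to the nearer SMRC1 peak. In the 1994 sites with an SMRC1 peak on 1 side the fold was 5.30 (5.21 to 5.45), with 28 reads over a background of 4.31 (4.004 to 4.47) and a gap of 3924 bp. Whether the neighbour carried another factor went with smaller differences. The median fold was 5.09 (4.88 to 5.36) in 613 near sites beside an SMRC1 peak with NFIC and 5.30 (5.14 to 5.43) in the other 1824. It was 4.91 (4.63 to 5.36) in 240 near sites beside an SMRC1 peak with SATB1 and 5.30 (5.14 to 5.41) in the other 2197. In both cases the intervals overlapped.

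Among bands of at least 2 Mb, near sites were densest in 17q25.3, with 33 sites (5.60 per Mb), 19q13.32, with 15 (5.36 per Mb), 20q11.23, with 17 (5.31 per Mb), 20q13.13, with 18 (5.29 per Mb), and 16p13.13, with 10 (4.76 per Mb). These bands were picked by their values. The share of near sites among the NFIC-only peaks of each band is not given, so the ranking describes density only. Their chromosomes were also dense in SMRC1 peaks, with 20.3 per Mb on chromosome 17, 19.1 on 19, 15.7 on 20 and 14.0 on 16. Over whole chromosomes there were 1.98, 2.05, 1.67 and 1.47 near sites per Mb in the same order.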
